A study of Mus musculus with 19 samples.

Results

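The phagocyte NADPH oxidase is the enzyme with which macrophages and neutrophils turn oxygen into superoxide. Its transcripts were followed here in epididymal white adipose tissue (eWAT) through 6 genes of the 24237 in the expression table: Cybb, Cyba, Ncf1, Ncf4 and Rac2, which encode subunits of the phagocyte enzyme, and Nox4, the form known from adipocytes and stromal cells. The genes were chosen by name. The tissue came from male C57Bl6/J mice, 9 to 10 weeks old at the start, which ate for 17 weeks a low-fat diet (LFD, 10% of energy as fat) or a high-fat diet (HFD, 60%, palm oil) with normal (0.21% by weight magnesium oxide) or low (0.03%) Mg2+. The groups were NormMg-LFD (4 mice), LowMg-LFD (5 mice), NormMg-HFD (5 mice) and LowMg-HFD (5 mice), with 1 RNA-seq library per mouse, so that n is the number of mice throughout. No genotype or drug differed between the groups. The paper's methods give 6 mice per cage, and the labels do not give the cage of a mouse. The part of the cage in the differences was therefore not tested and could not be told apart from that of diet.

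In the resting phagocyte, gp91phox (Cybb) and p22phox (Cyba) sit together in the membrane as cytochrome b558, while subunits such as p47phox (Ncf1) and p40phox (Ncf4) wait in the cytosol. On activation the cytosolic subunits and the GTPase Rac2 move to the cytochrome, and electrons pass from NADPH through gp91phox to oxygen. NOX4 also needs p22phox but none of the cytosolic subunits, produces mainly hydrogen peroxide and is thought to be controlled largely by its own amount. Adipose tissue of obese mice is known to gather macrophages, which carry the phagocyte enzyme.

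RefSeq promoter sequences (GRCm38.p6) matched 4 of the 6 genes, Cybb, Cyba, Ncf1 and Nox4, and the 250 bases before each start are printed because the first 3 genes were lower with low Mg2+ on the HFD in these mice and Nox4 was not called there. They lie at chrX:9469325-9469574 (minus strand, Cybb), chr8:122432941-122433190 (minus strand, Cyba), chr5:134229626-134229875 (minus strand, Ncf1) and chr7:87246399-87246648 (plus strand, Nox4), and read 5′ to 3′ along the gene. The RefSeq start can differ from the gene bounds of GENCODE given below, and for Cybb and Nox4 the printed stretch lies inside those bounds. Capitals mark every match of 3 short words on either strand. The first is CCAAT, the binding word of the factor NF-Y. The GC box, which Sp1 binds, is spelled GGGCGG. The core that ETS factors such as PU.1 recognise is spelled GGAA.
Cybb: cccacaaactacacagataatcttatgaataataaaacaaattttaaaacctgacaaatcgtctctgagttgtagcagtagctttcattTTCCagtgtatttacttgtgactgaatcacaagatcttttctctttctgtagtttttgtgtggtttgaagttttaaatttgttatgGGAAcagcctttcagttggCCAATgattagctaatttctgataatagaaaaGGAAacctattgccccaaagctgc
Cyba: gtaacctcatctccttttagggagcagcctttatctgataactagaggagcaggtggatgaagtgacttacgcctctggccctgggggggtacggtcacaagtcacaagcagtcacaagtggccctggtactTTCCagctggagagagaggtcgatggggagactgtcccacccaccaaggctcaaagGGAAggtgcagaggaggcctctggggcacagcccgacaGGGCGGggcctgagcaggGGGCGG
Ncf1: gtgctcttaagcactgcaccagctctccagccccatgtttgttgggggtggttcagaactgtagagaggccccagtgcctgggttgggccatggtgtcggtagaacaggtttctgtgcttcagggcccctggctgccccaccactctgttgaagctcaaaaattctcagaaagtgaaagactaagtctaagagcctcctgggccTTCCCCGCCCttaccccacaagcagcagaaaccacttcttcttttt
Nox4: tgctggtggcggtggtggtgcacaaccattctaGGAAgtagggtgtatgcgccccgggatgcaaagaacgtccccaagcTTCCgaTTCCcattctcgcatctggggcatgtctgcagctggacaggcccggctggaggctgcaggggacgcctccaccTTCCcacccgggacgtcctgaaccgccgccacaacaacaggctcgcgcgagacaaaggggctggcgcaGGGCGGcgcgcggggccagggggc
The Cybb promoter held 1 CCAAT, from 56 to 52 bases before the start, and 3 GGAA, but no GC box. Cyba held 2 GC boxes and 2 GGAA, Ncf1 held 1 of each, side by side on the antisense strand, and Nox4 held 1 GC box and 4 GGAA. Of 32851 promoter windows of the same length, 33.8% held a CCAAT, 32.7% a GC box and 93.4% a GGAA, so these short words are common. The share of G and C was 34% for Cybb, 60% for Cyba, 54.4% for Ncf1 and 67.2% for Nox4. No readout of binding was part of these data.

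Each library held between 12986441 and 13027028 reads, of which 86.12 to 90.41% mapped, and expression was given as FPKM, fragments per kilobase of transcript scaled to the mapped fragments of the library, a level corrected for gene length and library size. Tests were made with limma on log2(FPKM + 1) over the 8336 genes with a mean over 8 FPKM in a group and values over 8 FPKM in at least 4 of its mice, with Benjamini-Hochberg adjusted p-values called below 0.05. A fold change on that scale understates the change of low genes. Between the HFD groups, 1077 of these genes were lower and 465 higher on low Mg2+, and 2048 were higher and 1066 lower in NormMg-HFD than in NormMg-LFD mice. Under low Mg2+, 1036 were higher and 293 lower on the HFD. Centring each mouse on its median changed these splits to 849 lower and 649 higher, 1580 higher and 1572 lower, and 593 higher and 531 lower, and moved the median log2 fold change of all genes in the last comparison from 0.10 to −0.01. The tissue carried its defining markers, with the summed level of 8 adipocyte markers between 11330 and 20150 FPKM in every mouse. The summed level of 12 exocrine pancreas markers was 1576 FPKM in NormMg-LFD replicate 3, against 12.98 to 61.73 FPKM in the other mice. The study's methods name a LowMg-HFD sample as carrying pancreatic tissue and leave it out of the analyses. Which library that was is not given in the sources used here, so all 19 were kept. The LowMg-HFD libraries analysed here had pancreas sums of 23.55 to 51.45 FPKM. The sum of 7 epididymis markers was 124.4 FPKM in LowMg-LFD replicate 4 and at most 3.86 FPKM elsewhere. The sum of 12 neutrophil markers was 160.8 FPKM in NormMg-HFD replicate 3 and 23.21 to 33.64 FPKM in its 4 group mates. Leaving out these 3 mice, a choice made after seeing the data, did not end the lower call of any phagocyte subunit on low Mg2+ or the higher call on fat at normal Mg2+, and the values are given where they bear on a result.

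The 6 transcripts differed widely in level. Cyba was the highest of the 6 in each of the 19 mice, with group means from 49.71 ± 15.03 FPKM (SD, n = 5) in LowMg-LFD to 224.9 ± 59.0 FPKM (SD, n = 5) in NormMg-HFD mice. Cybb, Ncf1, Ncf4 and Rac2 lay close to each other in both LFD groups, with means between 4.96 and 8.32 FPKM, and spread out in NormMg-HFD mice, with means from 19.99 to 43.39 FPKM. Nox4 was the lowest of the 6 in every mouse, between 0.53 and 4.87 FPKM. It did not reach the 8 FPKM filter and was read from a fit of the 13454 genes that passed the same filter at 1 FPKM.

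**Figure D1:**
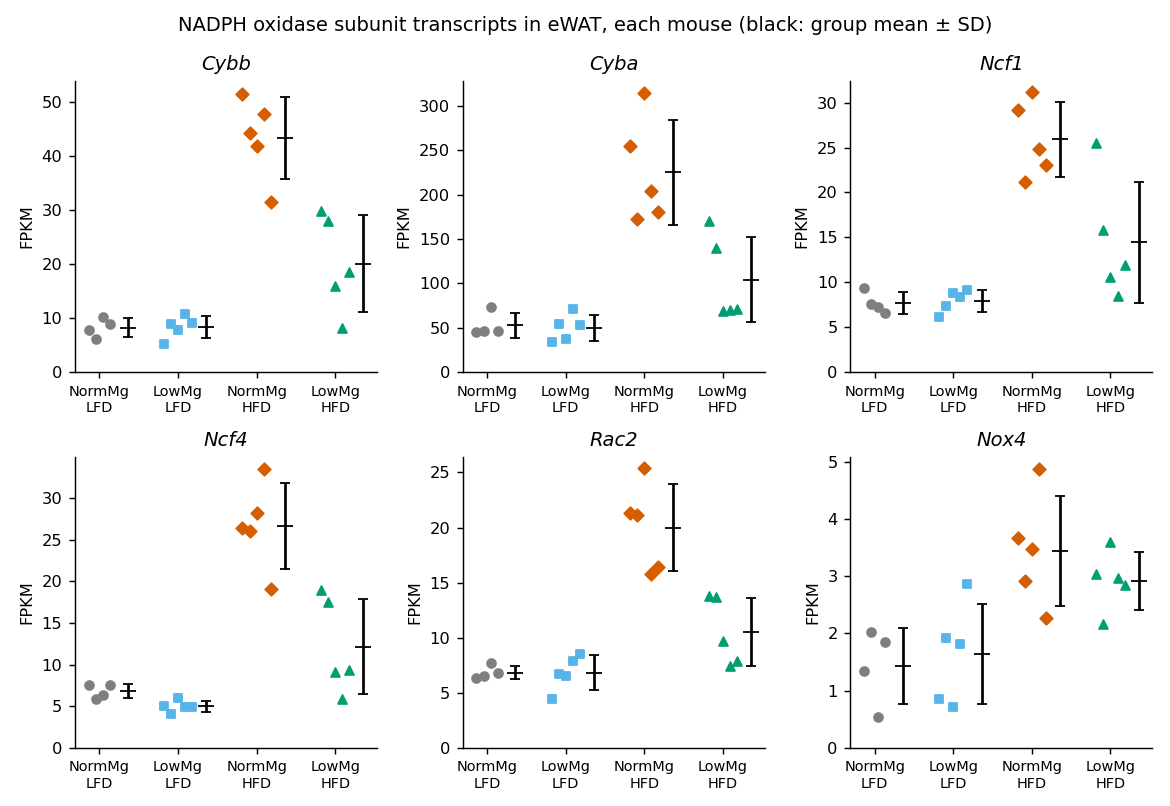
FPKM of each oxidase gene (vertical axis, linear and starting at 0) in each mouse of the 4 diet groups, with the group mean ± SD in black beside the points. For Cybb the NormMg-HFD mice sit between 31.51 and 51.55 FPKM, above every LowMg-HFD mouse, whereas for Nox4 the HFD groups overlap.

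Cybb, on the X chromosome at 9435252 to 9487771 on the minus strand (GRCm38, GENCODE M21, ENSMUSG00000015340.10), encodes the catalytic subunit. Its level was 7.69, 6.13, 10.16 and 8.94 FPKM in NormMg-LFD replicates 2 to 5 and 5.24, 8.80, 7.77, 10.80 and 8.99 FPKM in LowMg-LFD mice. In NormMg-HFD mice it was 51.55, 44.29, 41.81, 47.81 and 31.51 FPKM, and in LowMg-HFD mice 29.86, 27.91, 15.97, 8.18 and 18.50 FPKM. Every NormMg-HFD mouse was thus above every LowMg-HFD mouse, and LowMg-HFD replicate 4 fell among the LFD mice. The mean was 5.27 times higher in NormMg-HFD than in NormMg-LFD mice (log2 fold change 2.27 ± 0.27 SE, limma adjusted p = 3.978e-06). Low Mg2+ on the HFD went with a mean 0.463 times that of normal Mg2+ (log2 fold change −1.18 ± 0.26 SE, limma adjusted p = 0.00459).

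Cyba, on chromosome 8 at 122424776 to 122432930 on the minus strand (ENSMUSG00000006519.11), encodes the membrane partner that gp91phox and NOX4 share. NormMg-LFD replicates 2 to 5 had 45.21, 45.96, 73.38 and 46.08 FPKM, and LowMg-LFD mice 33.52, 53.61, 37.52, 71.38 and 52.51 FPKM. NormMg-HFD mice had 254.24, 172.61, 313.89, 203.45 and 180.52 FPKM, and LowMg-HFD mice 170.13, 140.24, 69.21, 69.77 and 70.55 FPKM. The HFD groups did not overlap, but LowMg-HFD replicate 1 at 170.13 FPKM came close to the lowest NormMg-HFD mouse at 172.61 FPKM, and the 3 lowest LowMg-HFD mice lay within the range of the LFD mice. The log2 fold change was 2.07 ± 0.28 (SE) for fat at normal Mg2+ (limma adjusted p = 1.213e-05) and −1.18 ± 0.26 (SE) for low Mg2+ on the HFD (limma adjusted p = 0.00503).

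Ncf1, the organiser p47phox, lies on chromosome 5 at 134220053 to 134229625 on the minus strand (ENSMUSG00000015950.13). Of its 3663 exon bases, 408 are shared with Gtf2ird2 on the other strand, and since the strand of counting is not given in the sources used here its level is less certain than that of the other subunits. It was 9.35, 7.61, 7.27 and 6.54 FPKM in NormMg-LFD replicates 2 to 5 and 6.13, 7.30, 8.82, 8.36 and 9.09 FPKM in LowMg-LFD mice. NormMg-HFD mice had 29.24, 21.16, 31.16, 24.84 and 23.08 FPKM, and LowMg-HFD mice 25.54, 15.78, 10.59, 8.48 and 11.97 FPKM. Here the HFD groups overlapped, because LowMg-HFD replicate 1 was above 3 of the 5 NormMg-HFD mice. The differences were 1.63 ± 0.22 (SE, log2, limma adjusted p = 1.101e-05) for fat at normal Mg2+ and −0.88 ± 0.20 (SE, log2, limma adjusted p = 0.00623) for low Mg2+ on the HFD.

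Ncf4, the cytosolic p40phox that binds phosphoinositide on the phagosome, lies on chromosome 15 at 78244801 to 78262580 on the plus strand (ENSMUSG00000071715.11). Its values were 7.57, 5.81, 6.30 and 7.50 FPKM in NormMg-LFD replicates 2 to 5 and 5.05, 4.06, 5.93, 4.87 and 4.89 FPKM in LowMg-LFD mice. NormMg-HFD mice had 26.37, 26.10, 28.15, 33.50 and 19.09 FPKM, and LowMg-HFD mice 18.98, 17.53, 9.15, 5.85 and 9.29 FPKM. NormMg-HFD replicate 5 and LowMg-HFD replicate 1 nearly met, at 19.09 and 18.98 FPKM, without crossing. Ncf4 gave log2 fold changes of 1.81 ± 0.24 (SE, limma adjusted p = 1.006e-05) for fat at normal Mg2+ and −1.16 ± 0.23 (SE, limma adjusted p = 0.00282) for low Mg2+ on the HFD.

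Rac2, the GTPase found mainly in blood-forming cells, lies on the same chromosome at 78559167 to 78572783 on the minus strand (ENSMUSG00000033220.6). NormMg-LFD replicates 2 to 5 had 6.29, 6.49, 7.67 and 6.78 FPKM, and LowMg-LFD mice 4.40, 6.72, 6.48, 7.90 and 8.50 FPKM. NormMg-HFD mice had 21.31, 21.10, 25.38, 15.76 and 16.42 FPKM, and LowMg-HFD mice 13.81, 13.73, 9.71, 7.45 and 7.85 FPKM. The HFD groups were apart, and 2 LowMg-HFD mice lay below the highest LFD mouse. Rac2 showed log2 fold changes of 1.41 ± 0.19 (SE, limma adjusted p = 1.387e-05) for fat at normal Mg2+ and −0.89 ± 0.18 (SE, limma adjusted p = 0.00364) for low Mg2+ on the HFD.

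Nox4, on chromosome 7 at 87246096 to 87398710 on the plus strand (ENSMUSG00000030562.17), was 1.35, 2.02, 0.53 and 1.84 FPKM in NormMg-LFD replicates 2 to 5 and 0.85, 1.92, 0.72, 1.81 and 2.86 FPKM in LowMg-LFD mice. NormMg-HFD mice had 3.67, 2.92, 3.48, 4.87 and 2.27 FPKM, and LowMg-HFD mice 3.03, 2.17, 3.59, 2.97 and 2.85 FPKM. The 5 LowMg-HFD mice fell inside the NormMg-HFD range except for replicate 2, which was just below it. Fat at normal Mg2+ went with a higher level, without overlap (log2 fold change 0.89 ± 0.24 SE, limma adjusted p = 0.00961). Low Mg2+ on the HFD gave a log2 fold change of −0.16 (95% confidence interval −0.64 to 0.32, limma adjusted p = 0.701). That interval holds no change as well as a fall of modest size or a smaller rise. With 1 mouse left out the log2 fold change ran from −0.27 to −0.0552.

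At normal Mg2+, then, fat went with higher levels of 5 of the 5 subunits that passed the filter, where 24.6% of all 8336 genes tested were called higher, and with a higher Nox4, where 19.2% of the 13454 genes over 1 FPKM were. The median log2 fold change of the 5 subunits was 1.81, against 0.07 for all genes tested. The 5 subunits had every NormMg-HFD mouse above every NormMg-LFD mouse, a pattern held by 21.5% of the 8336 genes, and so did Nox4, with 17.2% of the genes over 1 FPKM. Without NormMg-LFD replicate 3 the log2 fold changes were 2.15 for Cybb, 2.01 for Cyba, 1.62 for Ncf1, 1.75 for Ncf4, 1.39 for Rac2 and 1.01 for Nox4, all still called.

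On the HFD, low Mg2+ went with lower levels of 5 of 5 subunits, where 12.9% of the genes tested were called lower, and Nox4 was not called, where 8.95% of the genes over 1 FPKM were called lower. The median log2 fold change of the 5 was −1.16, against −0.04 for all genes tested. In 4 of them the groups did not overlap, a pattern in this direction that 9.56% of the genes tested showed. Without NormMg-HFD replicate 3, the mouse with the high neutrophil sum, the log2 fold changes were −1.19 for Cybb, −1.05 for Cyba, −0.81 for Ncf1, −1.14 for Ncf4 and −0.80 for Rac2, and each remained called.

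On the LFD, low Mg2+ gave no call among the 6 genes, nor for any other gene, 0% of the 8336 tested by limma, although 547 had an unadjusted p under 0.05. The log2 fold changes were 0.00 ± 0.27 (SE) for Cybb, −0.10 ± 0.28 for Cyba, 0.04 ± 0.22 for Ncf1, −0.02 ± 0.19 for Rac2 and 0.09 ± 0.24 for Nox4. Ncf4 was the farthest from 0, with means of 4.96 ± 0.67 FPKM (SD, n = 5) on low and 6.80 ± 0.88 FPKM (SD, n = 4) on normal Mg2+ and a 95% confidence interval of −0.89 to 0.11 for its log2 fold change of −0.39. Differences within such intervals are not excluded.

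**Figure D2:**
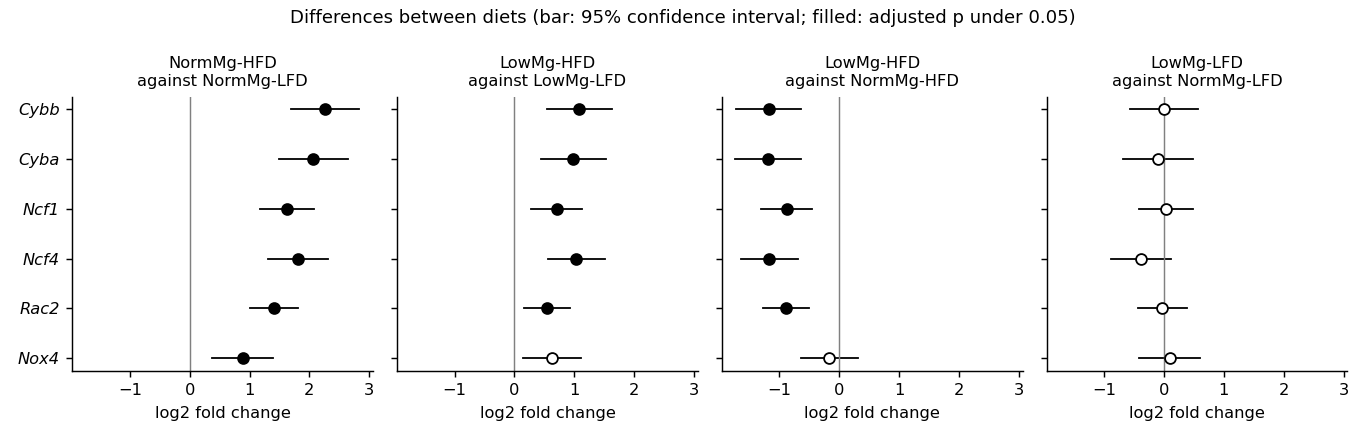
Log2 fold change of each gene (horizontal axis, with its 95% confidence interval) in the 4 comparisons of diets; filled points had a limma adjusted p under 0.05. Fat at normal Mg2+ moved all 6 genes up, and on the HFD low Mg2+ moved the 5 phagocyte subunits down with Nox4 at −0.16.

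Fat under low Mg2+ went with smaller fold changes than at normal Mg2+. The interaction test below, over all mice, called this difference for none of the 6 genes. The groups overlapped for all 6 genes, as they did for most genes, 6.99% of the genes tested being higher without overlap. The log2 fold change from LowMg-LFD to LowMg-HFD mice was 1.08 ± 0.26 (SE, limma adjusted p = 0.0079) for Cybb, 0.99 ± 0.26 (SE, limma adjusted p = 0.0155) for Cyba, 0.71 ± 0.20 (SE, limma adjusted p = 0.0245) for Ncf1, 1.03 ± 0.23 (SE, limma adjusted p = 0.00476) for Ncf4 and 0.55 ± 0.18 (SE, limma adjusted p = 0.0474) for Rac2. These were 5 of 5 subunits, against 12.4% of all genes called higher. Nox4 at 0.63 ± 0.23 (SE) was not called (limma adjusted p = 0.0884), where 8.24% of the genes over 1 FPKM were called higher, and it was called only without LowMg-LFD replicate 5 (0.78, limma adjusted p = 0.0375). The Rac2 call was lost in 19 of 28 alternative analyses (adjusted p up to 0.150), the Ncf1 call in 7 of 28 (up to 0.0892) and the Cyba call in 5 of 28 (up to 0.0545). Leaving out LowMg-HFD replicate 1 ended all 3, with log2 fold changes of 0.44 for Rac2, 0.49 for Ncf1 and 0.78 for Cyba, and so did leaving out LowMg-HFD replicate 2 (0.45, 0.65 and 0.85) or LowMg-LFD replicate 1 (0.42, 0.63 and 0.86).

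Whether the Mg2+ difference depended on dietary fat was tested as an interaction, the Mg2+ effect under HFD minus that under LFD. That difference was −1.18 ± 0.37 (SE, log2) for Cybb, −1.08 ± 0.38 for Cyba, −0.92 ± 0.30 for Ncf1, −0.78 ± 0.33 for Ncf4, −0.86 ± 0.26 for Rac2 and −0.26 ± 0.34 for Nox4. None was called, where 0.756% of the genes tested were called lower. The limma adjusted p-values of the 5 subunits lay between 0.0802 and 0.193, and their unadjusted ones between 0.00411 and 0.0291. Without LowMg-HFD replicate 1, 4 of the 5 were called, with differences of −1.35 for Cybb, −1.29 for Cyba, −1.14 for Ncf1 and −0.97 for Rac2, and the share of all genes called lower rose to 3.84%. Without LowMg-HFD replicate 2 the Cybb and Rac2 differences were called (−1.33 and −0.96), with 3.81% of all genes, and without LowMg-LFD replicate 1 that of Rac2 (−0.99), with 1.7%.

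For the 5 phagocyte subunits the order of group means was the same at the top: NormMg-HFD, then LowMg-HFD, with the LFD groups below both. The LFD groups were not told apart from each other, and LowMg-HFD was not tested against NormMg-LFD mice. The call of LowMg-HFD over LowMg-LFD mice depended on the analysis for Rac2, Ncf1 and Cyba. For Nox4 the order of the means was 3.44 ± 0.97 FPKM (SD, n = 5) in NormMg-HFD, 2.92 ± 0.51 FPKM (SD, n = 5) in LowMg-HFD, 1.63 ± 0.88 FPKM (SD, n = 5) in LowMg-LFD and 1.44 ± 0.67 FPKM (SD, n = 4) in NormMg-LFD mice, and no pair of neighbours in that order differed by the test.

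Within the LowMg-HFD group the 5 subunits ranked the mice alike at the top, with replicate 1 highest and replicate 2 second for each of them, while Nox4 put replicate 3 first and replicate 2 last. The summed level of 12 macrophage markers in these mice was 1887 and 1615 FPKM in replicates 1 and 2 and 1012, 741.4 and 1037 FPKM in replicates 3 to 5. After removing the group means, Pearson's r between pairs of the 5 subunits lay between 0.55 and 0.83 over the 19 mice (10 pairs), and between −0.03 and 0.13 for Nox4 with each subunit (5 pairs). These are descriptions, since the values of a mouse share one library.

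Cell number and RNA per cell cannot be told apart in bulk tissue, so the subunits were set beside markers of the cells that could carry them. Of 12 macrophage markers, 9 rose with fat at normal Mg2+, where 24.6% of all genes rose, 1 fell, where 12.8% fell, and 2 were not called. The fall, of Cd163, was lost without NormMg-LFD replicate 3 or NormMg-HFD replicate 3. With low Mg2+ on the HFD 9 fell, where 12.9% of all genes did, and 3 were not called. Their median log2 fold changes were 1.59 and −1.10. The macrophage surface protein Adgre1 (F4/80) was 112.6 FPKM in NormMg-HFD, 39.94 FPKM in LowMg-HFD and 13.87 FPKM in NormMg-LFD mice (group means). The markers not called on low Mg2+ were Mertk, Aif1 and Cd163, with log2 fold changes of 0.13, −0.10 and 0.27, so the marker list itself did not move as one. Summed over the list, the level ran from 547.9 to 665.1 FPKM in NormMg-LFD, 416.4 to 797.1 FPKM in LowMg-LFD, 2111 to 3209 FPKM in NormMg-HFD and 741.4 to 1887 FPKM in LowMg-HFD mice, and no marker was at 0 in any group. Neutrophils also carry the enzyme. Their 12 markers summed to 8.33 to 11.15 FPKM in NormMg-LFD, 6.54 to 21.4 FPKM in LowMg-LFD, 23.21 to 160.8 FPKM in NormMg-HFD and 11.93 to 24.28 FPKM in LowMg-HFD mice, with 3, 3, 1 and 2 of them at 0 in every mouse of those groups. Only S100a8 of the 12 passed the filter, at 4.36 FPKM in NormMg-LFD, 31.17 FPKM in NormMg-HFD and 8.44 FPKM in LowMg-HFD mice (group means). Its log2 fold change was 2.43 with fat at normal Mg2+ (limma adjusted p = 0.000188) and −1.83 with low Mg2+ on the HFD (limma adjusted p = 0.00492), and both were also called without NormMg-HFD replicate 3. The 7 dendritic cell markers summed to 18.76 to 25.89 FPKM in NormMg-LFD, 14.74 to 26.18 FPKM in LowMg-LFD, 55.86 to 89.21 FPKM in NormMg-HFD and 26.09 to 76.61 FPKM in LowMg-HFD mice, with none at 0 in every mouse of a group. Of these Itgax (CD11c), which adipose tissue macrophages can also carry, alone passed the filter. It rose with fat at normal Mg2+ (3.91, limma adjusted p = 2.115e-06) and fell with low Mg2+ on the HFD (−1.53, limma adjusted p = 0.0127), the latter not called without the 3 mice named above. The filter keeps genes that are high in any 1 group, so S100a8 and Itgax do not stand for the rest of their lists. The part of these cell types in the differences was not tested. The fits that follow only set the genes against the mean of the macrophage markers or against Cybb.

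In a fit that subtracted, in each mouse, the mean log2 level of the 12 macrophage markers, none of the 5 subunits was called for low Mg2+ on the HFD. The differences relative to the markers were −0.28 (95% confidence interval −0.68 to 0.12) for Cybb, −0.28 (−0.63 to 0.06) for Cyba, 0.02 (−0.38 to 0.41) for Ncf1, −0.27 (−0.72 to 0.19) for Ncf4 and 0.01 (−0.34 to 0.36) for Rac2. Cyba alone was called without LowMg-HFD replicate 1, at −0.38. In that fit 89% of all genes tested were called in one direction or the other. Nox4, again read over 1 FPKM, gave 0.74 ± 0.28 (SE, log2, limma adjusted p = 0.0201) relative to the markers, where 85.6% of all genes over 1 FPKM were called higher, and that call was lost at a pseudocount of 0.1 and without LowMg-HFD replicate 3 (0.61).

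For fat at normal Mg2+ the same fit called 95.3% of genes, Cybb and Cyba among them. Relative to the mean of the markers, Cybb rose by 0.69 ± 0.21 (SE, log2, limma adjusted p = 0.00258) and Cyba by 0.50 ± 0.18 (SE, log2, limma adjusted p = 0.0104). That mean takes in 9 markers called higher with fat, 1 called lower and 2 not called, so a rise relative to it is not a rise beyond each marker. Ncf1 (0.05), Ncf4 (0.24) and Rac2 (−0.16) were not called, with 95% confidence intervals of −0.37 to 0.47, −0.24 to 0.72 and −0.54 to 0.21. Nox4 gave −0.68 ± 0.30 (SE, log2, limma adjusted p = 0.0340) relative to the markers, where 93.3% of all genes over 1 FPKM were called lower, and that call was lost in 9 of 21 alternative analyses, among them the one without NormMg-LFD replicate 3 (−0.54).

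**Figure D3:**
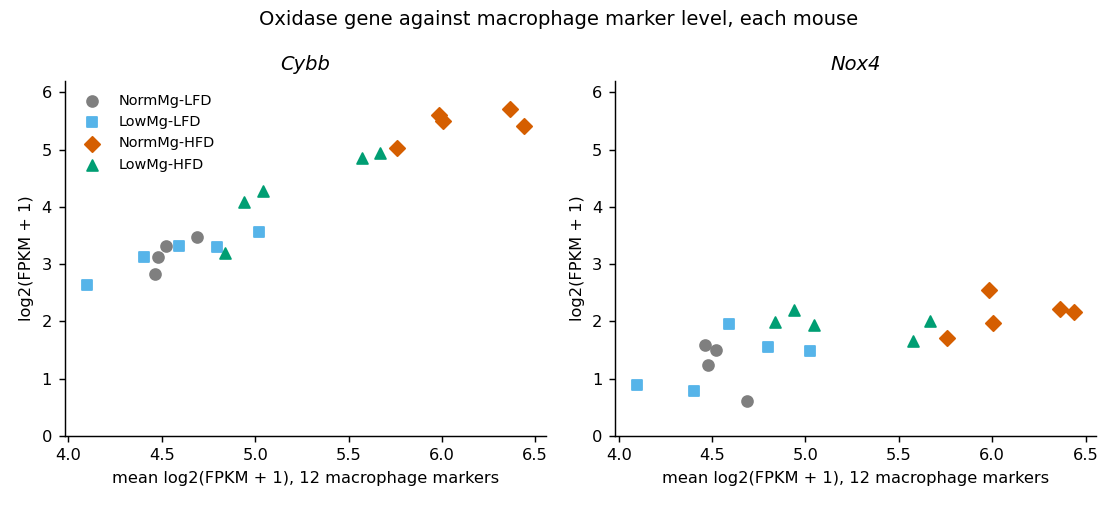
Log2(FPKM + 1) of Cybb (left) and Nox4 (right) in each mouse (vertical axes) against the mean log2(FPKM + 1) of 12 macrophage markers in the same mouse (horizontal axes), coloured by diet group. Cybb runs with the marker level across the groups, while the LowMg-HFD mice keep Nox4 between 2.17 and 3.59 FPKM at every marker level.

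Set against Cybb rather than against the markers, the proportions of the subunits could be compared between diets. The Cyba to Cybb ratio of FPKM was 6.44 ± 1.11 (SD, n = 4) in NormMg-LFD, 5.95 ± 0.69 (SD, n = 5) in LowMg-LFD, 5.26 ± 1.44 (SD, n = 5) in NormMg-HFD and 5.48 ± 1.85 (SD, n = 5) in LowMg-HFD mice, and it was not called in either comparison. The Rac2 to Cybb ratio was 0.848 ± 0.144 (SD, n = 4) in NormMg-LFD and 0.470 ± 0.105 (SD, n = 5) in NormMg-HFD mice, and the Ncf1 to Cybb ratio 0.976 ± 0.292 (SD, n = 4) and 0.609 ± 0.123 (SD, n = 5). Relative to Cybb, fat at normal Mg2+ thus went with a lower Rac2 (−0.86 ± 0.29 SE, log2, limma adjusted p = 0.00588) and a lower Ncf1 (−0.64 ± 0.29 SE, log2, limma adjusted p = 0.0356), in a fit that called 97.5% of genes. The Ncf1 call was lost in 6 of 21 alternative analyses, one of which left out NormMg-LFD replicate 3 (−0.53). Ncf4 gave −0.46 (95% confidence interval −1.04 to 0.13).

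On the HFD no phagocyte subunit was called relative to Cybb with low Mg2+, in a fit that called 92.4% of genes. The differences were −0.0029 (95% confidence interval −0.54 to 0.53) for Cyba, 0.30 (−0.26 to 0.86) for Ncf1, 0.02 (−0.54 to 0.57) for Ncf4 and 0.29 (−0.27 to 0.85) for Rac2. Relative to Cybb, Nox4 gave −1.38 ± 0.38 (SE, log2, limma adjusted p = 0.00121) with fat, where 97.2% of all genes over 1 FPKM were called lower. With low Mg2+ on the HFD it gave 1.02 ± 0.36 (SE, log2, limma adjusted p = 0.0107), where 90.5% of these genes were called higher. Its ratio to Cybb was 0.191 ± 0.114 (SD, n = 4) in NormMg-LFD, 0.0789 ± 0.0143 (SD, n = 5) in NormMg-HFD and 0.184 ± 0.115 (SD, n = 5) on the HFD with low Mg2+.

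The 5 genes whose levels followed Cybb most closely over the 19 mice were Wwp1 (Pearson's r = 0.989), Lyz2 (0.988), Csf1r (0.987), Cd300ld (0.985) and Nfam1 (0.984), out of 8336 genes. Lyz2 encodes lysozyme and Csf1r the receptor for macrophage colony-stimulating factor, and both were also in the macrophage list. For Nox4, out of 13454 genes, they were Tbc1d10b (0.831), Wdr81 (0.825), Postn (0.797), Fes (0.797) and Rinl (0.794). Postn, which encodes the matrix protein periostin, had means of 36.35 FPKM in NormMg-LFD, 40.83 FPKM in LowMg-LFD, 164.1 FPKM in NormMg-HFD and 81.71 FPKM in LowMg-HFD mice. The mice of a group share a diet, and much of each r reflects the differences between groups.

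Of the 5 assembly partners described here, 4 rose with fat at normal Mg2+, where 24.6% of all genes did, and 2 fell with low Mg2+ on the HFD, where 12.9% did. Without NormMg-HFD replicate 3 the latter count was 1 of 5, and the share of all genes 8.18%. Those that fell were Rap1b (−0.62, limma adjusted p = 0.00256), a small GTPase found with the cytochrome, and Rac1 (−0.30, limma adjusted p = 0.0162), a GTPase present in most cells. Rap1a, Cybc1, the chaperone of gp91phox and p22phox, and the proton channel gene Hvcn1, whose channel balances the charge that the oxidase moves, were not called on low Mg2+ (−0.17, −0.40 and −0.30). The median log2 fold change of the 5 was −0.30 on low Mg2+ and 0.45 with fat.

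The next list holds genes that load Rac with GTP or hold it inactive. Of 8 listed, 7 passed the filter, and all 7 rose with fat at normal Mg2+ and fell with low Mg2+ on the HFD, with medians of 1.32 and −0.78, where 24.6% of all genes rose and 12.9% fell. The exchange factors Vav1, Dock2, Vav3 and Prex1 gave −1.25, −0.98, −0.63 and −0.78 on low Mg2+. The GTPase-activating Arhgap25, which returns Rac to its inactive form, moved farthest, at 3.37 and −1.71, and the inhibitors Arhgdib and Arhgdia gave −0.77 and −0.43. Tiam1, under the filter and read over 1 FPKM, was not called (−0.03).

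Of 12 kinases that phosphorylate the cytosolic subunits or lead to it, 10 passed the filter. With fat at normal Mg2+ 7 rose and Prkca fell (−0.74), against 24.6% and 12.8% of all genes. With low Mg2+ on the HFD 6 fell, against 12.9% of all genes, Syk (−1.15), Prkcb (−1.12), Pik3r5 (−1.09), Btk (−0.95), Pik3cd (−0.70) and Prkcd (−0.67). Pak2 (−0.02), Mapk14 (−0.11), Irak4 (−0.39) and Prkca (0.56) were not called. Pak1 (−1.33) and Pik3cg (−0.63), read over 1 FPKM, also fell. The Prkca call with fat was lost without NormMg-LFD replicate 3 or NormMg-HFD replicate 3. Prkcb, a protein kinase C of leucocytes, was the 1 gene of the oxidase lists whose Mg2+ effect differed by diet (−1.43 ± 0.31 SE, log2, limma adjusted p = 0.0447), and leaving out any one of the 3 mice named above ended that call.

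**Figure D4:**
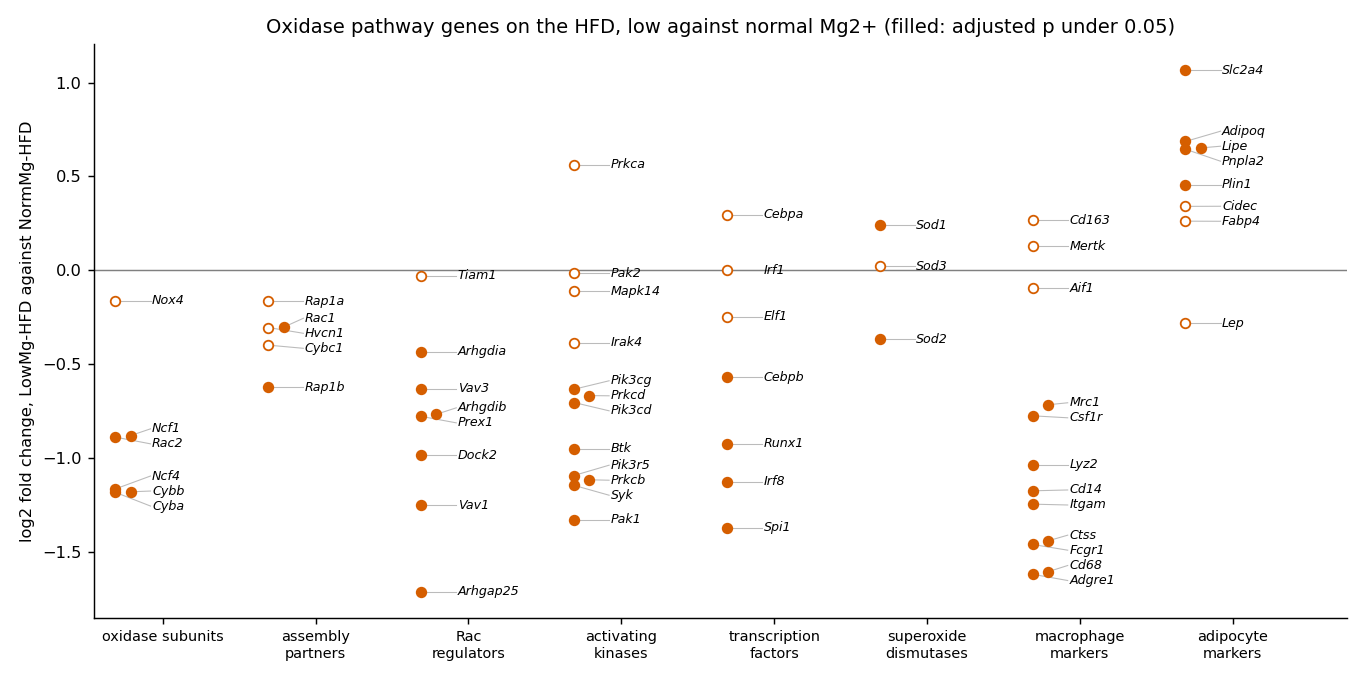
Log2 fold change (vertical axis) of LowMg-HFD against NormMg-HFD mice for the oxidase genes, their partners and regulators and 2 marker lists; filled points had a limma adjusted p under 0.05, and genes under 8 FPKM come from the fit over 1 FPKM. The phagocyte subunits lie between −1.18 and −0.88, Arhgap25 lies at −1.71, and 5 of the 8 adipocyte markers were called higher.

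The transcription factors that act on phagocyte genes divided. Spi1, which encodes PU.1, rose with fat (2.61, limma adjusted p = 1.405e-06) and fell with low Mg2+ on the HFD (−1.37, limma adjusted p = 0.00238), as did Irf8 (2.03 and −1.13) and Cebpb (1.15 and −0.57). Cebpa, which is also high in adipocytes, fell with fat (−0.65) and was not called on low Mg2+ (0.30), and Irf1 and Elf1 were called in neither. Of the 6 that passed the filter, 3 rose and 1 fell with fat, against 24.6% and 12.8% of all genes, and 3 fell with low Mg2+, against 12.9%. Runx1, read over 1 FPKM, fell as well (−0.93). Without NormMg-HFD replicate 3, low Mg2+ on the HFD called 2 of the 6 factors lower and 6 of the 7 Rac regulators, and 8.18% of all genes.

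The superoxide dismutases, which convert the oxidase's product to hydrogen peroxide, moved in both directions. With fat at normal Mg2+ mitochondrial Sod2 (0.55) and secreted Sod3 (0.60) rose and cytosolic Sod1 fell (−0.43), where 24.6% of all genes rose and 12.8% fell. On low Mg2+, Sod1 was 308.8 FPKM in NormMg-HFD and 363.7 FPKM in LowMg-HFD mice (log2 fold change 0.24, limma adjusted p = 0.0484), a call lost without NormMg-LFD replicate 3 or NormMg-HFD replicate 3. Sod2 fell (−0.37, limma adjusted p = 0.0059) and Sod3 gave 0.02, where 5.58% of all genes rose and 12.9% fell.

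Of 11 genes for other NADPH oxidases and their partners, 4 passed the filter. None of the other catalytic genes did, and the mean of Nox1 was 0.85 FPKM in NormMg-LFD mice and 0.896 FPKM in LowMg-HFD mice. Duoxa1, the maturation factor of the dual oxidase DUOX1, rose with fat under normal (1.92) and low Mg2+ (1.87) and was not called for Mg2+ on the HFD (−0.51). Sh3pxd2b (TKS4), a scaffold related to p47phox, rose with fat (1.66) and fell with low Mg2+ on the HFD, from a mean of 23.49 to 11.04 FPKM (limma adjusted p = 0.00224). Poldip2, a partner of NOX4, was not called in either comparison (−0.18 and 0.14).

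Some markers of other cells moved beside these genes. Of 6 endothelial markers, 1 was higher with low Mg2+ on the HFD, where 5.58% of all genes were, and 5 were not called. Of 8 adipocyte markers, 5 were lower and 1 higher with fat at normal Mg2+, where 12.8% of all genes were lower, and 5 were higher with low Mg2+ on the HFD, where 5.58% were higher. Of 8 stromal progenitor markers, Col1a1 (−1.22) and Col3a1 (−1.31) fell with low Mg2+ on the HFD and 6 were not called, where 12.9% of all genes fell. With fat at normal Mg2+, 3 of the 8 were higher, against 24.6% of all genes, and 2 without NormMg-LFD replicate 3 or NormMg-HFD replicate 3. Their part in the level of Nox4 was not tested.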

How the data were processed

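eWAT RNA of 19 mice was sequenced as 50-base single-end reads, per the paper's methods. The authors mapped the reads to mouse transcripts (GRCm38) with HISAT and Bowtie2 and estimated FPKM values per gene with RSEM 1.2.31, per the labels. The deposited FPKM values are normalised for length and library size and carry no counts, so the depth behind a single gene is unknown. The authors also deposited the read count of each library and the percent of its reads that mapped. Samples were grouped by their labels. Of 24238 genes, 1 had a non-numeric cell and was left out. FPKM were put on a log2(FPKM + 1) scale and fitted by limma 3.58.1 in R 4.3.3 (trend on mean level) over all 19 mice, 4 groups and 5 contrasts. The filter was over 8 FPKM as the mean of a group and in at least 4 of its mice (8336 genes), and Nox4 was read from the fit over 1 FPKM (13454 genes). In relative fits the level of Cybb, or the mean of 12 macrophage markers, was subtracted in each mouse before fitting. On data simulated with the spread of these mice, 50 genes at each size of change were altered in the LowMg-HFD group. Those called between the HFD groups were 48% at a log2 change of 0.5, 80% at 1, 96% at 1.5 and 100% at 2. Of the unchanged genes among the 8336, 14 were called. The simulated noise was independent between genes, unlike the levels of the subunits in these mice, so these rates need not hold here. Figures were drawn with matplotlib. The 6 genes, the lists and the tests were chosen with earlier results of these data known. The genes named were the 6, those of the lists, and the 5 most correlated with Cybb and with Nox4. No 2 libraries of a group held identical values (36 pairs). The alternatives were another pseudocount, other filters, scalings and fits, each mouse left out and a replicate block. Same-numbered mice of different groups mostly did not deviate together (r from −0.183 to 0.339, and over 0.1 in 5 of 27 pairs). One further gene was left out of the lists and is not reported here.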

Additional observations from a re-analysis of the deposited data

Results flagged for a closer look

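Cyba in NormMg-LFD replicate 4 was 73.38 FPKM, while the other 3 mice of its group lay between 45.21 and 46.08 FPKM. Its gap to the nearest mouse took up 0.961 of the range of the group on the log2 scale. Of 24 sets of gene and group checked this was the only one past the flagging threshold. Chance alone passes that threshold, which is lower than this gap, in about 1 in 20 sets. Without that mouse the log2 difference of Cyba between LowMg-LFD and NormMg-LFD mice was 0.07 instead of −0.10, and neither was called.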

How the results depend on the processing

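No call of the 5 phagocyte subunits changed in 28 alternatives, nor of Nox4 in 27, for fat at normal Mg2+ or low Mg2+ on the HFD. For the 6 genes and the counts of genes called, 877 of 968 alternative values kept direction and side of the threshold, 31 lost a call, 9 gained one, 18 turned direction and 33 counts moved by over 1.5 times; for relative levels these were 426 of 462, 17, 1 and 18. The causes were not tested. The interaction count of 104 genes became 24 at a pseudocount of 0.1, 48 over 1 FPKM, 2 without a filter, 245 with median centring, 347 with quantile normalisation, 67 without the trend, 0 without the 3 mice with other tissue or cells, and 0 (without NormMg-LFD replicate 2, among others) to 476 (without LowMg-HFD replicate 2) with 1 mouse left out. The count for low Mg2+ on the HFD, 1077 lower and 465 higher, was 877 without the 3 mice and 945 (without NormMg-HFD replicate 3) to 1642 with 1 left out. On the LFD 1 gene was called without a filter. For fat at low Mg2+, 1036 higher and 293 lower genes became 725 in all with only the groups compared and 807 (without LowMg-HFD replicate 2) to 1470.

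In that comparison Rac2 was not called at 0.55 over 1 FPKM, without a filter or with only the groups compared, at 0.44 with median centring, 0.36 with quantile normalisation and 0.60 without the 3 mice, nor Ncf1 at 0.71 without a filter or with only the groups compared, 0.60 (median) and 0.56 (quantile), nor Cyba at 0.99 without a filter or with only the groups compared. With 1 mouse left out the ranges were 0.42 to 0.65 for Rac2, 0.49 to 0.86 for Ncf1, 0.78 to 1.13 for Cyba and 0.49 to 0.78 for Nox4. The interaction of Rac2 was called with quantile normalisation (−0.92), and the ranges were −1.35 to −0.91 for Cybb, −1.29 to −0.94 for Cyba, −1.14 to −0.77 for Ncf1 and −0.99 to −0.76 for Rac2 with 1 mouse left out, and −0.39 to −0.0492 (without NormMg-LFD replicate 4) for Nox4. Nox4 for low Mg2+ on the HFD was −0.0552 without NormMg-HFD replicate 4. On the LFD, where nothing was called, Rac2 became 0.0408 (median) and 0.0771 (quantile) and Cybb −0.21 without the 3 mice, with ranges of −0.11 to 0.14 for Cybb, −0.24 to 0.0666 for Cyba, −0.0263 to 0.13 for Ncf1, −0.10 to 0.10 for Rac2 and −0.11 to 0.23 for Nox4.

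At a pseudocount of 0.1, low Mg2+ on the HFD gave 0.0351 for Cyba and −0.0105 for Ncf4 relative to Cybb, and −0.0029 for Ncf1, −0.0223 for Rac2 and 0.72 for Nox4 relative to the markers, and fat gave −0.32 for Nox4. With 1 mouse left out, the values on low Mg2+ ran from −0.16 to 0.13 for Cyba, −0.0484 to 0.0781 for Ncf4, 0.18 to 0.39 for Ncf1 and 0.12 to 0.39 for Rac2 relative to Cybb (Ncf1 and Rac2 lowest without LowMg-HFD replicate 4), and from −0.37 to −0.11 for Cybb (highest without LowMg-HFD replicate 4), −0.33 to −0.15 for Ncf4 (highest without NormMg-HFD replicate 4), −0.0876 to 0.0766 for Ncf1, −0.0431 to 0.0595 for Rac2, −0.38 to −0.22 for Cyba and 0.61 to 0.90 for Nox4 relative to the markers. Those with fat ran from −0.76 to −0.53 for Ncf1 and −0.34 to −0.10 for Cyba (nearest to 0 without NormMg-HFD replicate 2) relative to Cybb, and from −0.94 to −0.54 for Nox4, −0.0180 to 0.16 for Ncf1, −0.21 to −0.12 for Rac2 and 0.12 (without NormMg-HFD replicate 4) to 0.31 for Ncf4 relative to the markers.

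No source used here says that same-numbered mice were paired. With the replicate number as a block, the interaction count was 0, which ends the call of Prkcb too, Rac2 for fat at low Mg2+ was not called (0.55), nor with fat at normal Mg2+ were Ncf1 relative to Cybb (−0.67) and Nox4 relative to the markers (−0.64), and on the LFD Cybb was −0.0294 and Ncf1 −0.0231; the block changed no other call of the 6 genes or of their relative levels. Genes called higher and lower were then 472 and 994 for low Mg2+ on the HFD, 2023 and 1004 for fat at normal Mg2+, and 980 and 283 for fat at low Mg2+. FPKM carry no counts, so the depth behind Nox4, the lowest of the 6, is unknown.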
